A study of Mus musculus with 6 samples.

Results

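The unfolded protein response (UPR) of splenic dendritic cells was examined through 10 genes: the sensors Eif2ak3, Ern1 and Atf6, the transcription factor genes Xbp1, Atf4 and Ddit3, and the endoplasmic reticulum (ER) genes Hspa5, Sdf2l1, Dnajb9 and Herpud1. They were chosen by symbol and matched by Entrez ID among 27179 genes of the deposited count table. All 10 were present and all 10 passed the filter on low counts, as did 11602 genes in all. The cells were CD8-negative dendritic cells sorted by flow cytometry from the spleens of C57BL/6 mice and lysed without culture. One group of 3 libraries came from CpG-pretreated mice and the other group of 3 from untreated mice, and each group carries the numbers 2, 3 and 4. CpG DNA activates cells through Toll-like receptor 9. The title of the series calls the cells paralysed after a systemic inflammatory syndrome. The sources used here do not give the CpG sequence, dose, route, time before collection, mouse age or any pooling of animals. The comparison asks whether transcripts of the UPR differed in these dendritic cells after earlier exposure to CpG.

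The UPR adjusts the protein folding capacity of the ER. PERK (encoded by Eif2ak3) phosphorylates the translation factor eIF2alpha, which lowers general translation and favours translation of ATF4 and, downstream, induction of CHOP (Ddit3). IRE1alpha (Ern1) removes a short intron from Xbp1 mRNA in the cytoplasm, and ATF6 is cut in the Golgi to release a transcription factor. Spliced XBP1 and ATF6 raise chaperone and ER-associated degradation genes, and in mouse the IRE1 branch has been studied closely in conventional dendritic cells.

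Several regulatory steps of this pathway act on RNA or protein and cannot be read from counts per gene. The clearest is the Xbp1 intron, shown here because both Xbp1 forms add to the same count. In GRCm38 it lies at chr11:5524282-5524307 on the plus strand, inside exon 4 and the coding sequence of the GENCODE M21 transcript Xbp1-201. A search of that transcript for a pair of 7-base loops of the form CNGCAGC spaced by the intron found 1 position. The sequence follows with the 26 bases of the intron in capitals and 20 flanking bases on each side.
Xbp1 intron: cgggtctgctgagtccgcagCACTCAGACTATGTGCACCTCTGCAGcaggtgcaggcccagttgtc
The intron is not a multiple of 3 bases long, so its removal changes the reading frame. The spliced share of Xbp1 was not measured here.

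Promoter elements of the UPR were sought from 250 bases before to 50 bases after the transcript start, in RefSeq sequences of GRCm38.p6. Promoters were found for 9 of the 10 genes, and Atf6 had no entry. Both strands were searched for the ER stress element ERSE (CCAAT, 9 bases of any kind, then CCACG), ERSE-II (ATTGG, 1 base of any kind, then CCACG), TGACGTGG (UPRE) and TGATGNAA (the core of a C/EBP-ATF composite site). Positions count the first transcribed base as 0. The Hspa5 promoter held an ERSE that starts at -65, and the Herpud1 promoter held an ERSE-II that starts at -52 and, on the minus strand, a C/EBP-ATF core at -112. The 250 bases before the start of these 2 genes are shown with the matches in capitals, because no other member's window held a match. They lie at chr2:34771840-34772089 for Hspa5 and at chr8:94386179-94386428 for Herpud1, both on the plus strand.
Hspa5 promoter: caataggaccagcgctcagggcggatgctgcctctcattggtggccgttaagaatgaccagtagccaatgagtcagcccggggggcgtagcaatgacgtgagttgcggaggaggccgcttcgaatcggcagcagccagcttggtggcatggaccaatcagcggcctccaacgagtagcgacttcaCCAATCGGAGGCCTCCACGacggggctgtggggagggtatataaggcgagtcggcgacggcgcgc
Herpud1 promoter: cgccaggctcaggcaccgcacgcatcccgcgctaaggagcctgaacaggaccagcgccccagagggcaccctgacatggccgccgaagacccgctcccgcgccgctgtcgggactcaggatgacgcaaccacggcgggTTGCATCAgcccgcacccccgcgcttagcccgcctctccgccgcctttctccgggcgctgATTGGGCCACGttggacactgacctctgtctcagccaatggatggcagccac
Of 32851 promoters in the table, 0.119% held an ERSE, 0.0365% an ERSE-II, 0.676% a UPRE and 3.97% a C/EBP-ATF core. Apart from the members, 15 tested genes had an ERSE, of which none was called by edgeR, and their median log2 fold change was 0.13, against -0.01 over all tested genes. Fitted with the library number as a block, 1 of these 15 genes was higher and 1 lower. Of all tested genes, 4.73% were higher and 3.78% lower in that fit, and 0.974% were called without the block. The 7 tested genes with an ERSE-II had a median of -0.02 and none was called in either fit. At such shares, 15 and 7 genes are too few for their calls to show a difference from all genes.

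Libraries held 7855500 to 8228140 counts in all, which makes 1 count worth 0.123 to 0.127 CPM (counts divided by the TMM-scaled library total, on the usual CPM scale). Dendritic cell transcripts were abundant. The 9 markers of CD8-negative dendritic cells summed to 30001.3 to 35243.8 CPM in CpG-pretreated and 32858.1 to 38673.2 CPM in untreated libraries, and none was at 0. Most of that was Cd74 (19250 to 22987 CPM CpG-pretreated, 21076 to 25391 untreated) and H2-Ab1 (6377 to 7971 CpG-pretreated, 6843 to 8873 untreated). Itgax had 1812 to 2080 CPM in CpG-pretreated and 2075 to 2275 CPM in untreated libraries. The lowest marker was Clec10a, at 8.37 to 11.2 CPM in CpG-pretreated and 5.25 to 7.99 CPM in untreated libraries. Both libraries numbered 2 stood apart from those numbered 3 and 4. Their deviations from the group mean fell with gene length across all tested genes, with Spearman correlations of -0.55 in CpG-pretreated library 2 and -0.67 in untreated library 2, against 0.23 to 0.53 in the other 4. Results below are therefore also given without both of them. Summed erythroid markers were at 206 to 976 CPM in CpG-pretreated and 21.1 to 86.4 CPM in untreated libraries (1 of the 7 markers in the table was at 0 in every library), and summed cell division markers at 1363.5 to 1614 CPM in CpG-pretreated and 830 to 930 CPM in untreated libraries. Red pulp macrophage markers summed to 332 to 449 CPM in CpG-pretreated and 475 to 602 CPM in untreated libraries. Of 9 tested, 7 were called lower with the library number as a block and 3 without it. The cDC1 markers summed to 162 to 247 CPM in CpG-pretreated and 154 to 194 CPM in untreated libraries. Of 7 tested, 4 were called higher with the block and 0 without it. Of 5 tested erythroid markers 2 were called higher with the block and 3 without it, and of 8 cell division markers 8 and 1. Of all tested genes 4.73% were called higher and 3.78% lower with the block, and 0.474% higher and 0.5% lower without it. Plasmacytoid dendritic cell markers summed to 282 to 317 CPM in CpG-pretreated and 254 to 259 CPM in untreated libraries. Spib (137 to 188 CPM CpG-pretreated, 129 to 140 untreated), Tcf4 and Bst2 made up most of it, while Siglech reached at most 2.21 CPM. Of 5 tested, 0 were called with or without the block, and the groups overlapped in each. The sum alone therefore does not show a difference in plasmacytoid dendritic cells. NK cell markers summed to 67.0 to 110 CPM in CpG-pretreated and 36.3 to 42.5 CPM in untreated libraries. Nearly all of that was Klrk1 (66.7 to 108 CPM CpG-pretreated, 36.0 to 40.9 untreated), and the next highest, Gzma, reached at most 2.33 CPM. T cell markers summed to 283 to 446 CPM in CpG-pretreated and 471 to 494 CPM in untreated libraries. Nearly all of that was Cd4 (279 to 444 CPM CpG-pretreated, 467 to 492 untreated), and the next highest, Lck, reached at most 1.75 CPM. These sums therefore describe Klrk1 and Cd4, not NK and T cells. B cell and neutrophil sums overlapped between the groups. In bulk RNA, fewer cells of a type and less RNA per cell cannot be told apart.

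No UPR gene was called between the groups. By edgeR's quasi-likelihood test 0 of the 10 members were called at an adjusted p under 0.05, where 0.974% of all tested genes were called, 0.474% as higher and 0.5% as lower. At an unadjusted p under 0.05 it was also 0 of 10, against 12.8% of all genes, 6.64% higher and 6.16% lower. DESeq2 and limma-voom likewise called 0 members, where they called 439 of 17129 and 41 of 11602 genes in all. The fit with the number as a block also called 0, where 8.52% of all genes were called. Libraries of both groups overlapped in each of the 10 genes, while in 18.7% of all tested genes the groups did not overlap. Beside these shares, 10 genes are too few for counts of 0 to show a difference from all genes. Of the log2 fold changes 5 were above and 5 below 0, from -0.17 for Eif2ak3 to 0.18 for Dnajb9, with a median of -0.02.

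**Figure D1:**
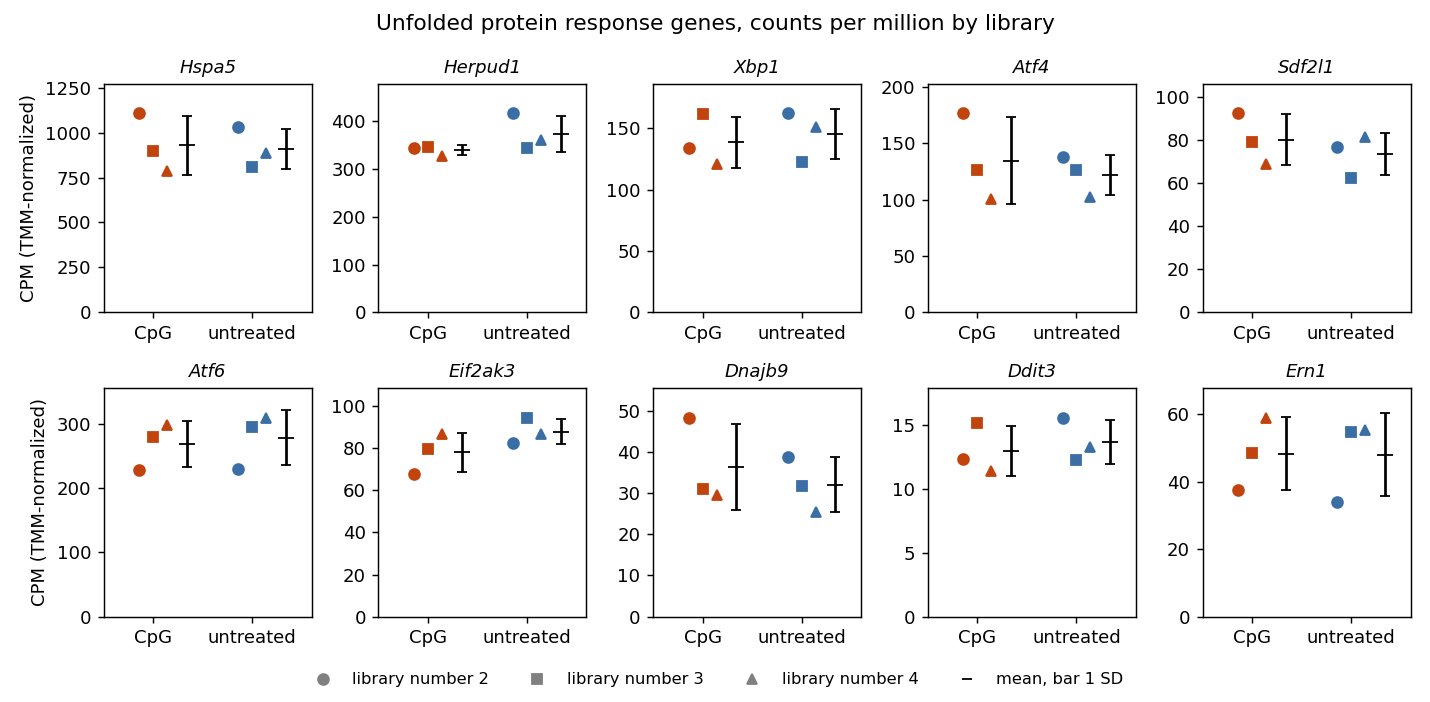
CPM (y axis, TMM-normalized, from 0) of each gene in the 3 CpG-pretreated libraries (left, red) and the 3 untreated libraries (right, blue), with the mean and 1 SD beside them. Symbols mark the library number, and the groups overlap in all 10 genes.

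The sensors act first in the pathway and had the greatest gene lengths of the 10. Eif2ak3, encoding PERK (chromosome 6, 70844484 to 70905241 in GRCm38), had 68.1, 79.8 and 86.6 CPM after CpG pretreatment in libraries 2, 3 and 4, against 82.7, 94.6 and 86.7 CPM in untreated libraries 2, 3 and 4. CpG-pretreated library 2 was the lowest, and the other 2 of its group lay below or within the untreated range. The log2 fold change was -0.17 (SE 0.12, edgeR adjusted p = 0.656), the lowest value among the members. Ern1, encoding IRE1alpha (chromosome 11, 106397620 to 106487796), had 37.5, 48.4 and 58.9 CPM after CpG pretreatment, against 33.9, 54.8 and 55.3 CPM in untreated libraries. The number 2 libraries were the lowest of both groups, and the means were 48.3 ± 10.7 CPM in CpG-pretreated and 48.0 ± 12.2 CPM in untreated cells (SD, n = 3 each). Its log2 fold change was 0.01 (SE 0.22, adjusted p = 0.993). Atf6, the Golgi-cleaved sensor (chromosome 1, 170704457 to 170868585), had 228, 279 and 298 CPM after CpG pretreatment, against 230, 295 and 309 CPM in untreated libraries. The order of the numbers was the same in both groups, and the log2 fold change was -0.05 (SE 0.15, adjusted p = 0.95).

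The transcription factor genes had log2 fold changes between -0.07 and 0.14, none called. Xbp1 (chromosome 11, 5520641 to 5525993) had 134, 162 and 121 CPM after CpG pretreatment, against 162, 123 and 151 CPM in untreated libraries. The highest and the lowest CpG-pretreated libraries bracketed nearly the same range as the untreated group, and the log2 fold change was -0.07 (SE 0.14, adjusted p = 0.934). Atf4, whose protein activates amino acid supply and redox genes (chromosome 15, 80255184 to 80257545), had 176, 127 and 100 CPM after CpG pretreatment, against 137, 126 and 102 CPM in untreated libraries. In both groups library 2 was highest and library 4 lowest. The log2 fold change was 0.14 (SE 0.20, adjusted p = 0.885), and by number the log2 difference was 0.36, 0.002 and -0.03 in pairs 2, 3 and 4. Ddit3, encoding CHOP, which promotes apoptosis when ER stress persists (chromosome 10, 127290793 to 127296291), was low. It had 12.4, 15.2 and 11.5 CPM after CpG pretreatment, against 15.6, 12.3 and 13.3 CPM in untreated libraries, that is 91 to 120 counts in CpG-pretreated and 98 to 127 in untreated libraries. The log2 fold change was -0.07 (SE 0.17, adjusted p = 0.937).

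The ER genes are the classical readout of the response. Hspa5 encodes BiP, the main Hsp70 chaperone of the ER lumen (chromosome 2, 34772090 to 34776529; its ERSE is shown above). It had 1106, 897 and 785 CPM after CpG pretreatment, against 1030, 809 and 886 CPM in untreated libraries. CpG-pretreated cells held both the highest and the lowest value, with means of 929 ± 163 CPM in CpG-pretreated and 908 ± 112 CPM in untreated cells (SD, n = 3 each). The log2 fold change was 0.03 (SE 0.15, adjusted p = 0.968). Sdf2l1, a lumenal partner of BiP co-chaperones (chromosome 16, 17130138 to 17132383), had 92.5, 79.4 and 69.0 CPM after CpG pretreatment, against 77.1, 62.4 and 81.4 CPM in untreated libraries. It was higher in pairs 2 and 3 and lower in pair 4. Its log2 fold change was 0.13 (SE 0.14, adjusted p = 0.835). Dnajb9 encodes ERdj4, a BiP co-chaperone that restrains IRE1 (chromosome 12, 44205897 to 44210068). It had 48.3, 31.1 and 29.6 CPM after CpG pretreatment, against 38.8, 31.8 and 25.4 CPM in untreated libraries. Library 2 was highest in both groups, and its log2 fold change was the highest among the members at 0.18 (SE 0.22, adjusted p = 0.849). Herpud1, a membrane component of ER-associated degradation (chromosome 8, 94386429 to 94395371; its ERSE-II is shown above), had 345, 345 and 327 CPM after CpG pretreatment, against 416, 344 and 361 CPM in untreated libraries. The CpG-pretreated values were tightly grouped and untreated library 2 stood above all others. On the log2 scale the fold change was -0.14 (SE 0.10, adjusted p = 0.687).

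The 95% interval of the fold change ran from 0.81 to 1.29 for Hspa5, from 0.76 to 1.20 for Xbp1, from 0.77 to 1.22 for Atf6 and from 0.77 to 1.07 for Herpud1. The widest upward bound was that of Dnajb9, at 1.61-fold, and the lowest downward bound that of Ern1, at 0.71-fold. Each gene's own interval, not adjusted for the number of genes, therefore lay inside a 2-fold change in either direction. These intervals come from the fit without the block. With the block the SE ranged from 0.073 for Atf6 to 0.16 for Ddit3, against 0.10 for Herpud1 to 0.22 for Dnajb9 without it, and no member was called. Without both libraries numbered 2 the log2 fold changes lay between -0.12 for Eif2ak3 and 0.09 for Dnajb9. None of the 10 was called in that fit of 2 against 2, and Hspa5 was at -0.01 (interval -0.22 to 0.20).

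**Figure D2:**
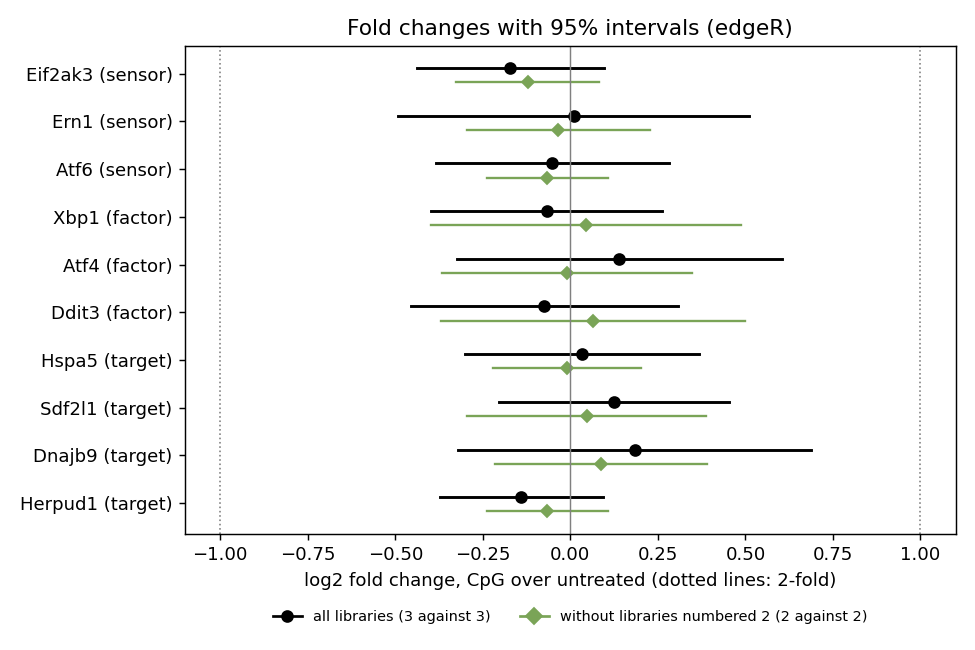
Log2 fold change of CpG-pretreated over untreated (x axis) with its 95% interval from edgeR, for all 6 libraries (black) and without the libraries numbered 2 (green). All intervals include 0 and lie between the dotted lines that mark a 2-fold change.

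Levels per transcript length spanned a wide range. As CPM divided by the deposited gene length in kilobases (RPKM), Hspa5 was highest at 355 in CpG-pretreated and 347 in untreated cells, above 99.1% of tested genes. Herpud1 followed at 181 RPKM in CpG-pretreated and 200 RPKM in untreated cells, and each of these 2 was separated from the next gene in every library. Xbp1 (77.1 RPKM CpG-pretreated, 80.8 untreated), Atf4 (77.9 CpG-pretreated, 70.7 untreated) and Sdf2l1 (72.5 CpG-pretreated, 66.4 untreated) overlapped each other over the 6 libraries, each above at least 90.8% of tested genes. Atf6 was apart at 35.9 RPKM in CpG-pretreated and 37.3 RPKM in untreated cells. Eif2ak3 (17.4 RPKM CpG-pretreated, 19.6 untreated), Dnajb9 (19.5 CpG-pretreated, 17.2 untreated), Ddit3 (14.95 CpG-pretreated, 15.7 untreated) and Ern1 (12.1 in both groups) formed a low run in which neighbours overlapped. Ern1 was near the middle of all tested genes, of which 49.3% were lower.

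The difference of the number 2 libraries from the others exceeded the CpG log2 fold change in size in 9 of the 10 members, Herpud1 being the exception (0.138 against -0.140). This difference in size was not tested. Averaged over both groups, log2 CPM in the libraries numbered 2 minus those numbered 3 and 4 was 0.56 for Dnajb9, 0.46 for Atf4, 0.34 for Hspa5 and 0.22 for Sdf2l1. It was -0.60 for Ern1, -0.37 for Atf6 and -0.21 for Eif2ak3. All 7 had the same sign in both groups, for example 0.67 in CpG-pretreated and 0.45 in untreated cells for Dnajb9, and -0.51 in CpG-pretreated and -0.69 in untreated cells for Ern1. Hspa5, Sdf2l1, Dnajb9 and Atf4 were thus high in the libraries where all sensors were low. In the untreated group Sdf2l1 was higher still in library 4, at 81.4 CPM against 77.1 CPM in library 2. Herpud1 was above 0 in both groups, at 0.04 in CpG-pretreated and 0.24 in untreated cells. Xbp1 and Ddit3 had opposite signs in the groups, at -0.07 and -0.09 in CpG-pretreated and 0.25 and 0.29 in untreated cells.

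**Figure D3:**
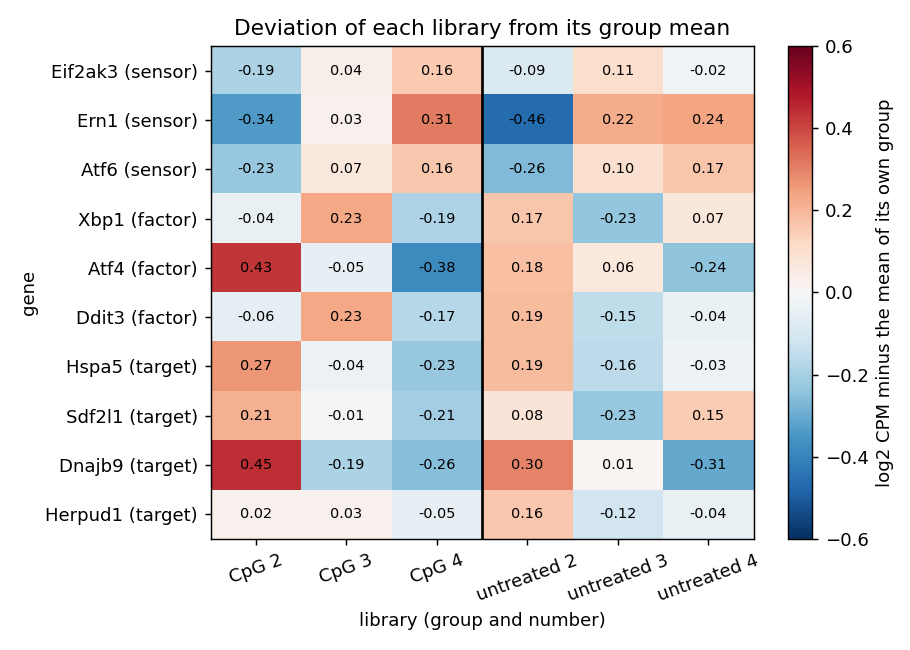
Log2 CPM of each gene (rows) in each library (columns, CpG-pretreated left of the line) minus the mean of its own group, in colour and digits; the 3 values of a group sum to 0. The sensors are low and Atf4, Hspa5, Sdf2l1 and Dnajb9 above the group mean in library 2 of both groups. Untreated Sdf2l1 is higher still in library 4 (0.15, against 0.08 in library 2).

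Correlations of these deviations over the 6 libraries describe the same split. Among 45 pairs of members, 8 had r above 0.8 and 9 below -0.8. Ern1 and Atf6 gave 0.99, Xbp1 and Ddit3 0.95, Atf4 and Dnajb9 0.94, and Hspa5 and Sdf2l1 0.85. Eif2ak3 and Hspa5 gave -0.98, and Atf6 and Dnajb9 -0.94. The points share their library and depth, and deviations within a group are tied to each other, so the coefficients are descriptions only. On log2 CPM over the 6 libraries, the genes outside the members most like Hspa5 were Mvk, Mfsd10, Mtch2, BC004004 and Aimp2 (r from 0.989 to 0.996), and 256 of 11592 other genes exceeded 0.9. Those most like Ddit3 were Cdkn2a, Lrrc45, Ccdc134, Zfp944 and 5430405H02Rik (r from 0.96 to 0.99).

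Gene length moved with this pattern. The 3 sensors measured 3976 to 7463 bases, and the 6 members of up to 2000 bases were Ddit3, Sdf2l1, Atf4, Xbp1, Dnajb9 and Herpud1. Over all tested genes the number 2 difference had a Spearman correlation of -0.69 with gene length, and its median was 0.23 in 3622 genes of up to 2000 bases and -0.21 in 4174 genes over 3500 bases. Atf6 and Eif2ak3 lay within the middle 50% of genes over 3500 bases (-0.37 to -0.07), and Ern1 lay below it. Dnajb9 and Atf4 lay above the middle 50% of genes of up to 2000 bases (0.10 to 0.37), while Sdf2l1 and Herpud1 lay within it and Ddit3 and Xbp1 just below it, at 0.098 and 0.092. Hspa5, at 0.34, lay above the middle 50% of genes over 2000 and up to 3500 bases (-0.10 to 0.13). The part of gene length in the opposite movement of sensors and chaperones was not tested.

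**Figure D4:**
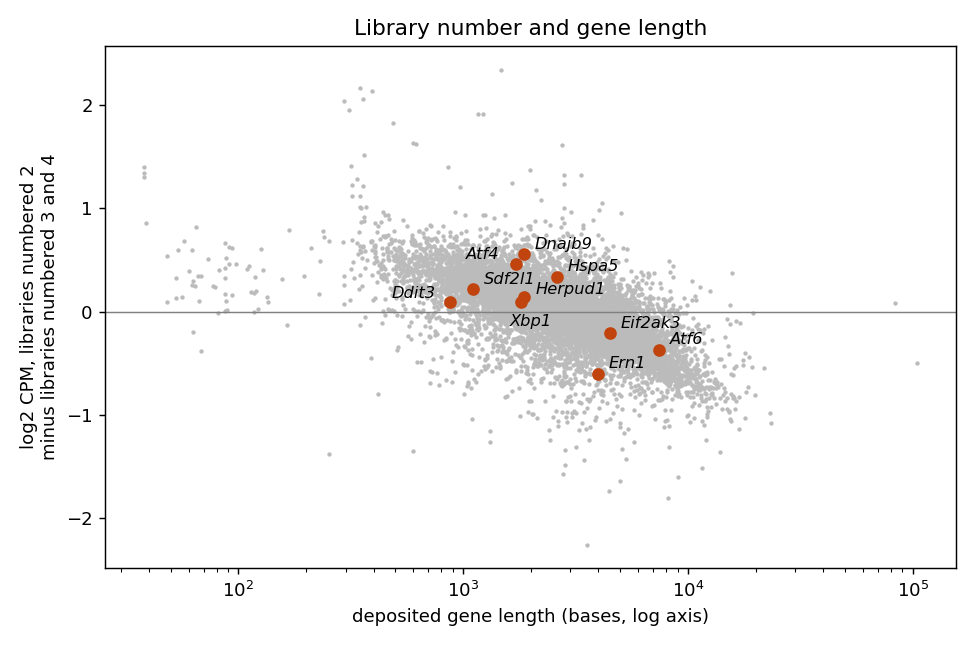
Log2 CPM in the libraries numbered 2 minus those numbered 3 and 4, averaged over both groups (y axis), against deposited gene length (x axis, log scale), for all tested genes (grey) and the 10 UPR genes (red). The long sensors Ern1, Eif2ak3 and Atf6 lie below 0 and the shorter members above 0. Ern1 lies below the middle 50% of genes of its length class, and Hspa5, Dnajb9 and Atf4 above theirs.

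The wider pathway was described with 9 lists of 185 other genes, of which 169 were tested. None passed the edgeR test over all genes, where 0.974% of genes were called. Of the 169, 18 had an unadjusted p under 0.05, 14 of them higher and 4 lower, against 6.64% and 6.16% of all genes. With the number as a block, 7 rose and 2 fell, or 4.14% and 1.18% of the 169, against 4.73% and 3.78% of all genes tested. DESeq2 called 3 of 183, against 439 of 17129 genes in all, and limma-voom 0 of 169, against 41 of 11602. The groups did not overlap in 27 genes that were above (16.0%) and 7 that were below (4.14%), against 9.2% and 9.47% of all genes. The median log2 fold change was 0.06, against -0.005 over all tested genes. Of the 169 genes 120 were above 0, against 5671 of 11602 tested genes. By library number the median of the 169 was 0.08, 0.07 and 0.01 in pairs 2, 3 and 4.

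**Figure D5:**
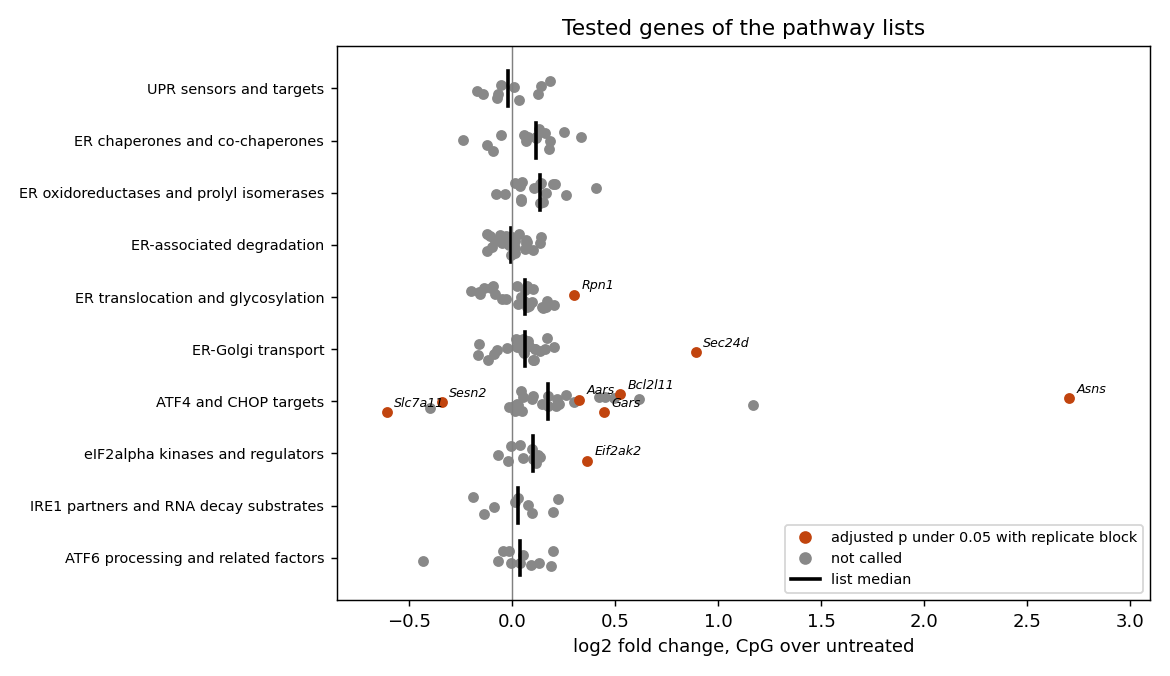
Log2 fold change of CpG-pretreated over untreated (x axis) of each tested gene, by list, with the list median as a black bar. Red points passed an adjusted p of 0.05 in edgeR with the library number as a block, and none of the 10 UPR genes is red.

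Genes for protein folding in the ER gave small positive medians and no call. Among 15 chaperones and co-chaperones 11 were above 0, against 5671 of 11602 tested genes. Their median was 0.11, against -0.005 over all tested genes, and 0 were called in either fit. The abundant Hsp90b1, encoding GRP94, had 540, 533 and 475 CPM after CpG pretreatment, against 454, 418 and 542 CPM in untreated libraries (log2 fold change 0.13, adjusted p = 0.771). Calr, calreticulin, had 490 ± 18.9 CPM in CpG-pretreated and 430 ± 43.5 CPM in untreated cells (SD, n = 3 each), a log2 fold change of 0.19 (adjusted p = 0.541) with groups that did not overlap. Creld2 had the largest positive value, 0.34 (adjusted p = 0.346), and Sil1, a nucleotide exchange factor of BiP, the lowest, -0.24 (adjusted p = 0.663). The chaperone medians were 0.12 and 0.25 in pairs 2 and 3 and -0.02 in pair 4, so the positive chaperone medians were those of pairs 2 and 3. Of 17 tested oxidoreductases and prolyl isomerases 15 were above 0, with a median of 0.13 and 0 called in either fit. The median of this list was positive in each pair, at 0.13, 0.10 and 0.09 in pairs 2, 3 and 4. The disulfide isomerase genes Pdia3 and P4hb had log2 fold changes of 0.20 and 0.14 (adjusted p = 0.558 and 0.689), and the list ran from -0.08 for Qsox1 to 0.41 for the scarce Pdia5.

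ER-associated degradation, translocation and transport genes had medians of -0.005 to 0.06, against -0.005 over all tested genes. Of the 26 translocation and 25 transport genes 17 and 19 were above 0, against 5671 of 11602 tested genes. Every CpG-pretreated library was above every untreated one in 5 (19.2%) and 3 (12%) of them, against 9.2% of all genes. All were below in 0 and 2 (8%) of them, against 9.47%. The 24 degradation genes had a median of -0.005, with 11 above and 13 below 0 and none called in either fit. The mannosidase-like Edem1 and the lectin gene Os9 had 0.14 and -0.08 (adjusted p = 0.814 and 0.813), and the list ran from -0.12 for Herpud2 to 0.14 for Ube2g2. Among 26 translocation and glycosylation genes (median 0.06) the oligosaccharyltransferase subunit gene Rpn1 had 164, 148 and 132 CPM after CpG pretreatment, against 121, 114 and 125 CPM in untreated libraries. Its log2 fold change was 0.30 (SE 0.11, adjusted p = 0.274, and 0.0464 with the block). Ssr1 and Serp1, the most abundant of this list, had -0.05 and 0.02 (adjusted p = 0.931 and 0.968), and Ssr4 the lowest value, -0.20. Among 25 genes of ER-Golgi transport (median 0.06) Sec24d, a COPII coat gene, had 21.1, 24.1 and 13.6 CPM after CpG pretreatment, against 8.48, 11.4 and 11.8 CPM in untreated libraries. For Sec24d the log2 fold change was 0.89 (SE 0.23, adjusted p = 0.120, and 0.0193 with the block). Library 4 of the CpG-pretreated group was close to the untreated values. Copa and Lman2 had 0.11 and 0.05 (adjusted p = 0.860 and 0.911), and Tmed2 the lowest value, -0.16.

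Targets of ATF4 and CHOP held most of the calls made with the block. Of 30 tested genes 0 were called by edgeR without the block, against 0.974% of all genes. At an unadjusted p under 0.05, 8 were higher and 3 lower, where 6.64% of all genes were higher and 6.16% lower. With the block 4 rose and 2 fell, 13.3% and 6.67% of the list, against 4.73% and 3.78% of all genes. Asns, asparagine synthetase, had 6.99, 5.199 and 1.76 CPM after CpG pretreatment, against 0.492, 1.0 and 0.615 CPM in untreated libraries. These were 57, 41 and 14 counts in CpG-pretreated libraries against 4, 8 and 5 in untreated ones, with every CpG-pretreated library above every untreated one. For Asns the log2 fold change was 2.71 (SE 0.56, adjusted p = 0.0702, and 0.000791 with the block). Gars, glycyl-tRNA synthetase, had 151, 138 and 120 CPM after CpG pretreatment, against 99.0, 103 and 97.6 CPM in untreated libraries (log2 fold change 0.45, SE 0.11, adjusted p = 0.0987, and 0.00395 with the block). Bcl2l11, encoding the apoptosis inducer BIM, had 45.3, 69.4 and 42.1 CPM after CpG pretreatment, against 32.9, 40.1 and 35.8 CPM in untreated libraries (log2 fold change 0.53, adjusted p = 0.284, and 0.0110 with the block). The cystine transporter gene Slc7a11 went the other way, with 5.89, 10.7 and 8.94 CPM after CpG pretreatment, against 9.95, 14.1 and 14.8 CPM in untreated libraries. Its log2 fold change was -0.61 (adjusted p = 0.343, and 0.0276 with the block).

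The 2 remaining calls of that list, named after their values were seen, were Aars, alanyl-tRNA synthetase, at 0.33 (adjusted p = 0.255, and 0.0306 with the block), and Sesn2, a stress-induced inhibitor of mTORC1 signalling, at -0.34 (adjusted p = 0.350, and 0.0138 with the block). The most abundant targets were called in neither fit. The amino acid transporter gene Slc38a2 had 623 ± 53.3 CPM in CpG-pretreated and 630 ± 28.6 CPM in untreated cells (SD, n = 3 each; log2 fold change -0.01). Ppp1r15a, encoding GADD34, the phosphatase subunit that reverses eIF2alpha phosphorylation, had 461, 304 and 201 CPM after CpG pretreatment, against 404, 343 and 209 CPM in untreated libraries (0.02, adjusted p = 0.992). Its order over the numbers was that of Atf4. The list median was 0.25, 0.16 and 0.03 in pairs 2, 3 and 4. Summed erythroid markers had the same order of numbers as Asns, at 976, 922 and 206 CPM after CpG pretreatment in libraries 2, 3 and 4. So did the plasma cell sums, at 1603, 945 and 827 CPM, and the neutrophil sums, at 103, 59.7 and 53.4 CPM. The part of these cells in the values of the list was not tested. Cell division markers did not share this order, at 1614, 1363.5 and 1387 CPM in CpG-pretreated libraries. In the order of Sec24d and Bcl2l11, library 3 highest and library 4 lowest, stood the sums of cDC1 markers, with 224, 247 and 162 CPM, and of NK cell markers, with 106, 110 and 67.0 CPM, after CpG pretreatment in libraries 2, 3 and 4. The NK cell sum was nearly all Klrk1, with 102, 108 and 66.7 CPM. Of the 7 cDC1 markers 6 had a log2 fold change above 0, among them Clec9a at only 0.01. Batf3 was at -0.27 and did not share the order, with 79.7, 72.8 and 75.3 CPM. The part of cDC1 and NK cells was not tested either. The 8 targets too low to test went both ways. Counts in CpG-pretreated libraries 2, 3 and 4, against untreated ones, were 11, 6 and 5 against 2, 6 and 5 for Trib3, 3, 5 and 2 against 3, 2 and 0 for Chac1, and 2, 7 and 2 against 0, 1 and 0 for Pycr1. They were 2, 2 and 2 against 10, 4 and 5 for Gdf15, and 1, 1 and 0 against 3, 4 and 1 for Cth. Vldlr, Stc2 and Fgf21 had at most 1 count in any library.

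The remaining lists concerned the regulators themselves. Among 12 eIF2alpha kinases and regulators (median 0.10) Eif2ak2, encoding the interferon-inducible kinase PKR, had 79.5, 93.1 and 81.5 CPM after CpG pretreatment, against 51.2, 74.4 and 71.5 CPM in untreated libraries. Its log2 fold change was 0.37 (SE 0.15, adjusted p = 0.354, and 0.0224 with the block). The other kinases Eif2ak1 and Eif2ak4 had 0.10 and -0.07 (adjusted p = 0.754 and 0.923), beside -0.17 for Eif2ak3, and Ppp1r15b had 0.13 (adjusted p = 0.720). Among 9 tested IRE1 partners and RNA substrates (median 0.03, none called in either fit), Itgb2 and Tapbp, reported as IRE1 substrates in mouse dendritic cells, had 0.03 and 0.22 (adjusted p = 0.956 and 0.442). Map3k5, the kinase ASK1, had -0.19. Among 11 ATF6-related genes (median 0.04, none called in either fit) Nfya and Atf6b had 0.19 and 0.09, Nfyc 0.20, and Wfs1 the lowest value, -0.43 (adjusted p = 0.336).

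Plasma cells carry a strong UPR, so their markers were set beside the members. The 11 plasma cell markers summed to 1603, 945 and 827 CPM after CpG pretreatment in libraries 2, 3 and 4, against 878, 879 and 747 CPM in untreated libraries. Of these markers Derl3 was also in the degradation list, and Irf4 was also among the markers of CD8-negative dendritic cells. Most of the sum was Ighm, at 552 to 1052 CPM in CpG-pretreated and 488 to 571 CPM in untreated libraries. The defining genes Sdc1 and Tnfrsf17 did not exceed 0.51 CPM in any library, and Tnfrsf17 was at 0 in the 3 CpG-pretreated libraries. The markers did not move as one. Ighm, Igkc and Jchain were highest in CpG-pretreated library 2, Igkc at 286 and Jchain at 108 CPM. So were the scarce Mzb1, Pou2af1 and Derl3, at 2.58, 3.56 and 2.94 CPM. Of the members, Dnajb9, Hspa5, Atf4 and Sdf2l1 were also highest there, while Xbp1 and the other members were not. Prdm1 and Irf4 were lowest in that library, at 8.46 and 124 CPM. As a marker in both lists, Irf4 cannot be read as plasma cell RNA alone. Ighg2c was highest in CpG-pretreated library 3, with 15.2, 27.6 and 6.55 CPM after CpG pretreatment, against 2.95, 8.88 and 2.09 CPM in untreated libraries (edgeR log2 fold change 1.83, adjusted p = 0.235, and 5.61e-05 with the block). The part of plasma cell RNA in these values was not tested.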

How the data were processed

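Polyadenylated RNA was sequenced from 6 libraries, 3 CpG-pretreated and 3 untreated. The authors deposited whole-number read counts per Entrez gene with a gene length, per the file headers. CASAVA, featureCounts and the mm10 build are named in the submitters' processing notes. The sources used here do not give the aligner, the strand setting or how reads matching several genes were counted. Counts in the 6 files of single samples equalled the table of the series. Symbols came from RefSeq GRCm38.p6 (25275 IDs matched, 1904 did not).

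The main test was run with edgeR 4.0.16 under R 4.3.3: filterByExpr (minimum count 10, minimum total 15), TMM normalization and the two-sided quasi-likelihood F test of CpG-pretreated over untreated, with Benjamini-Hochberg adjustment over 11602 genes and calls at an adjusted p under 0.05. Log2 CPM used a prior count of 2. SE values and 95% intervals were derived from the F statistic, and since the labels do not say that libraries came from separate animals, p-values reflect only the variation among these libraries. The code was tested on simulated data. Alternatives used other scalings and filters, DESeq2 1.42.0, limma-voom (limma 3.58.1), fewer libraries and a replicate block.

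The labels do not say what the numbers mark. Deviations from group means correlated at 0.48, 0.25 and 0.31 between same-numbered libraries 2, 3 and 4, each over the minimum of 0.1, so the numbers were taken to pair samples, on the data alone. Blocked values are given where they change a call.

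The members, lists and tests were chosen with earlier results of these data known. From each list were named genes called in either fit (at most 4, by size), the 2 most abundant, and the largest rise and fall. Without strand information, reads of overlapping genes cannot be separated: exons of Ddit3 share 68 bases with Mars, and exons of Eif2ak3 share 485 bases with Gm43292, on the opposite strand. Among the other genes named, overlaps were longest for Tapbp (904 bases), Copa (708), Ppp1r15b (640) and Eif2ak1 (487, with Aimp2). Dnajb9 has a processed pseudogene, Gm6568, 93.3% identical over 697 bases. Processed pseudogenes also match Tmed2 (Gm10698, 100% over 604 bases), Nfyc (Gm9144, 99.4% over 1008 bases), Itgb2 (Gm14699, 96.5% over 228 bases) and Calr (Calr-ps, 92.5% over 495 bases), and the longest Slc7a11 transcript has a stretch 93.6% identical to Tuba1c over 482 bases, so the counts of all these genes are less certain. Copies were sought with blastn at 90% identity over at least 200 bases. A planned count of proteins with a KDEL or HDEL tail was not run, as no protein sequences were used here.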

Additional observations from a re-analysis of the deposited data

How the results depend on the processing

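No member was called under any of the 15 alternatives. Of 150 member values under them, 130 kept their direction and 20 changed sign, with adjusted p-values no lower than 0.251. Eif2ak3, Herpud1 and Sdf2l1 never changed sign. Sign changes gave 0.045 for Xbp1, -0.034 for Ern1, -0.010 for Atf4, 0.065 for Ddit3 and -0.010 for Hspa5 without replicate 2 in both groups. They gave -0.018 for Ern1 and -0.0012 for Hspa5 with upper quartile scaling, and -0.0095 for Ern1 with library size only. Leaving out each library in turn moved Xbp1 from -0.18 to 0.030, Ern1 from -0.18 to 0.16, Atf4 from -0.10 to 0.31, Atf6 from -0.16 to 0.054, Ddit3 from -0.19 to 0.041, Hspa5 from -0.11 to 0.15 and Dnajb9 from -0.077 to 0.36. The cause of these sign changes was not tested.

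The number of all genes called, 113, was 988 with the replicate block, 189 without a low count filter, 439 by DESeq2, 41 by limma-voom and 67 without replicate 2 in both groups, and ran from 0 to 386 when each library was left out. Fits without a library have fewer samples. Pathway list genes called, 0 of 169, were 9 with the replicate block, 1 (Asns) without a low count filter and 3 (Asns, Gars and Sec24d) by DESeq2. They were 4 (the same 3 and Nupr1, a stress-induced chromatin protein gene) without CpG-pretreated replicate 4, and 0 to 4 over all single omissions. The replicate block changed no call among the 10 members. Counts near 100 for Ddit3, and under 10 for Asns in untreated libraries, limit the precision of those genes.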
